A study of Mus musculus with 4 samples.

Results

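The genes described here are 9 receptors and ligands of the tumor necrosis factor (TNF) superfamily that act in T cell costimulation. They are the receptors Tnfrsf4 (OX40), Tnfrsf9 (4-1BB), Tnfrsf18 (GITR) and Cd27, and the ligands Tnfsf4 (OX40 ligand), Tnfsf9 (4-1BB ligand), Tnfsf8 (CD30 ligand), Tnfsf11 (RANKL) and Cd70 (the ligand of Cd27). They were chosen by symbol, 9 of the 32285 genes measured, and were followed across regulatory T cells, helper T cells, CD8 T cells, NK cells and dendritic cells. The measurements are single-cell RNA-seq counts of CD45-positive leukocytes sorted live from KPC tumors, which are subcutaneous tumors of a mouse pancreatic cancer line, grown in male C57BL/6NHsd mice. All 4 groups carried the same tumor. The groups were untreated, STING agonist (ADU-S100, injected once into the tumor), LTbR agonist (the antibody 4H8, an activator of the lymphotoxin beta receptor, given repeatedly into the peritoneum), and STING and LTbR agonist together, called the combination below. Tumors of a group were pooled before sorting, so each group is 1 library and no comparison between groups has replicates.

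Costimulatory receptors of the TNF family are placed on the T cell surface around the time of antigen recognition and carry signals through TRAF adaptor proteins to the canonical and non-canonical NF-kappaB pathways. OX40, 4-1BB and GITR are largely induced by activation and are present on regulatory T cells in tumors, whereas CD27 is already present on naive T cells. The ligands are trimeric membrane proteins of antigen-presenting cells and of activated lymphocytes, and RANKL, made by activated T cells, prolongs the survival of dendritic cells through RANK. The question the comparisons address is where in the tumor each receptor and each ligand is transcribed, and whether activating STING, LTβR or both shifts those levels.

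After the study's limits on genes and mitochondrial reads, 23011 of 24839 barcodes were kept, with 3748 to 7147 cells per library and a median of 5750 to 7094 UMIs (counted RNA molecules) per cell. Across libraries, 284 barcode sequences occurred more than once. Cell classes were rebuilt from markers with all 9 genes left out of the genes used for clustering, and each class carries the ending "-like". There were 756 regulatory-like, 1145 helper-like, 3276 CD8-like, 1722 NK-like and 1547 dendritic-like cells. Foxp3, the lineage factor of regulatory T cells, stood at 615 to 772 CPM (a gene's UMIs scaled to the total UMIs of its class) in regulatory-like cells and at 8.10 to 10.3 CPM in helper-like cells, and Ncr1, an NK receptor, stood at 268 to 369 CPM in NK-like cells. Cd4 was at 0 in CD8-like cells and Cd8a at 0 in helper-like cells by the way these classes were split, while Cd8a stood at 7.42 to 114 CPM in regulatory-like cells. Of the 12 macrophage or monocyte markers, all 12 had a UMI in dendritic-like cells, with a summed level of 1549 to 1720 CPM, and the 8 neutrophil markers summed to 899 to 1544 CPM there. All 12 macrophage or monocyte markers were also seen in CD8-like cells, at 791 to 1119 CPM summed, and in NK-like cells, at 373 to 795 CPM. This list includes Ly6c2, which is also in the marker list of memory T cells. Of the same list, Lyz2 stood at 13.7 to 31.6 CPM in CD8-like and 9.41 to 35.8 CPM in NK-like cells. C1qa stood at 2.70 to 7.22 and 2.22 to 7.52 CPM. The part of these markers in the levels below was not tested.

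In genome build GRCm38 (mm10), Tnfrsf4 lies on chromosome 4 at 156013843 to 156016612 on the plus strand, with Tnfrsf18 next to it at 156026164 to 156028895 on the same strand. The gap between them is 9551 bp and holds 0 protein-coding genes. Tnfrsf9 (150914562 to 150946102, plus strand) and Tnfsf8 (63831308 to 63861347, minus strand) are on the same chromosome. Tnfsf9 (57105325 to 57107757, plus strand) and Cd70 (57145997 to 57149777, minus strand) are neighbors on chromosome 17, 38239 bp apart. Tnfsf4 is on chromosome 1 (161395409 to 161418410), Cd27 on chromosome 6 (125232622 to 125237010) and Tnfsf11 on chromosome 14 (78277445 to 78308043). Tnfrsf9 overlaps Camta1, Cd27 overlaps Vamp1, Tnfrsf18 overlaps the antisense gene Gm16008 and Tnfsf9 overlaps Gm11110, each on the other strand, so reads from these overlaps could be assigned to either gene where the counting did not use strand.

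RefSeq promoter windows (GRCm38.p6), 250 bases before a transcription start, were found for 6 of the 9 genes, with 7 windows because Tnfrsf9 has 2. They are shown because Tnfrsf4, Tnfrsf9 and Tnfrsf18 were highest in the same class, and the windows let the letters before their RefSeq starts be compared. The RefSeq starts of Tnfrsf18 (156026322), Tnfrsf9 (150920155 and 150927999) and Tnfsf8 (63861284) lie inside the gene spans given above. Their windows therefore lie at least partly within those spans. Each window was searched on both strands for 5 motifs: a kappaB-like GGGNNNTTCC, an AP-1-like TGANTCA, a STAT-like TTCNNNGAA, an interferon-response-like GAAANNGAAA and the NFAT core GGAAA. The kappaB-like letters, present in 4.65% of 32851 mouse promoter windows, and the AP-1-like letters, present in 6.75%, were found before the downstream start of Tnfrsf9 and in none of the other 6 windows. The STAT-like letters (7.02% of all windows) were found for Tnfrsf9 and Tnfrsf18, the interferon-response-like letters (2.98%) for none of the 7, and the NFAT core (55.6%) for all 7. In the lines that follow, written on the plus strand, capitals mark the matched letters, and the kappaB-like match contains an NFAT core on the other strand.
Tnfrsf9, kappaB-like, chr4:150927946-150927975: cagagcagctGGGGATTTCCcaggaggccc
Tnfrsf9, AP-1-like, chr4:150927969-150927998: gaggccctgctcagtTGAGTCAcaggtcct
Tnfrsf9, STAT-like, chr4:150927853-150927882: caacagctgaTTCCAAGAAacccttcagag
Tnfrsf18, STAT-like, chr4:156026213-156026242: tgctctacacTTCACAGAAggcctttacaa
The Tnfrsf4 window is given whole, because of the 5 motifs it held the NFAT core alone, as TTTCC on the plus strand.
Tnfrsf4, chr4:156013445-156013694: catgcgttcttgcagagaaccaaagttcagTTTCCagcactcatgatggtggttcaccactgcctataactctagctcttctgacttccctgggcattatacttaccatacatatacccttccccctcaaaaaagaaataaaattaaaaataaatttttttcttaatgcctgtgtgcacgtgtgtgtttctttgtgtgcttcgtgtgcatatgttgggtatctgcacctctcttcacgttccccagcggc
A match describes letters only and does not show that a factor binds there.

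Tnfrsf4, the OX40 receptor of activated CD4 T cells, was highest in regulatory-like cells in every library. Its level there was 1654 CPM in the untreated library, 2155 with STING agonist, 1460 with LTbR agonist and 1777 with the combination (1761 ± 293, SD over the 4 libraries, which differ in treatment). Helper-like cells held 464, 504, 507 and 581 CPM in the same order, so the ranges of the classes lay apart, with a ratio of means of 3.43. CD8-like cells followed at 102 to 138 CPM and dendritic-like cells at 18.8 to 33.9 CPM. NK-like cells held 2 to 9 Tnfrsf4 UMIs per library, 1.34 to 2.85 CPM, the lowest level of the 5 classes and taken here as the background for this gene.

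The share of cells with a Tnfrsf4 UMI followed the same order. It was 75.9% of untreated regulatory-like cells (95% exact binomial interval 68.6 to 82.3) and 91.4% with the combination (86.0 to 95.2), against 0.791 to 0.928% of NK-like cells, whose median depth of 4119.5 to 5227 UMIs was close to the 3303.5 to 4316 UMIs of regulatory-like cells. With each cell thinned to 1000 UMIs, 63.9 to 70.3% of regulatory-like, at least 26.3% of helper-like and 6.49 to 8.84% of CD8-like cells kept a Tnfrsf4 UMI, and at most 0.238% of NK-like cells did. These intervals, and all Poisson intervals below, cover counting error only and not the spread between mice.

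Tnfrsf9, the 4-1BB receptor that supports CD8 T cell and NK cell expansion, was also highest in regulatory-like cells in all 4 libraries, at 976, 1240, 1082 and 1081 CPM (untreated, STING, LTβR and combination). CD8-like cells were second, at 272, 247, 242 and 342 CPM, and overlapped helper-like cells at 253, 279, 244 and 202 CPM, with CD8-like above helper-like in 2 of 4 libraries. NK-like cells held 160 to 219 CPM and overlapped helper-like cells in turn. Dendritic-like cells were lowest at 50.2 to 95.6 CPM, apart from the NK-like range. NK-like cells were below helper-like cells in 3 of 4 libraries.

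Tnfrsf18, the GITR receptor, had all 5 class ranges apart from their neighbors, as Tnfrsf4 did. They ran from regulatory-like (908 to 1061 CPM) through helper-like (362 to 433), CD8-like (219 to 230) and NK-like (120 to 173) to dendritic-like cells (47.9 to 62.6). Its level in CD8-like cells was 219, 224, 221 and 230 CPM, a mean of 223 ± 5.08 CPM (SD, n = 4 libraries). The Poisson interval of the untreated value ran from 208 to 230 CPM, so this spread was within counting error.

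Cd27, the receptor of CD70 and a marker of naive and memory T cells, was ordered differently. CD8-like cells held 153, 152, 116 and 124 CPM and regulatory-like cells 138, 148, 215 and 167 CPM. CD8-like cells were therefore above in the untreated and STING libraries and regulatory-like cells above in the other two, and the ranges overlapped. NK-like cells (52.1 to 79.3 CPM) lay apart from both and from helper-like cells (25.4 to 36.3 CPM), which were thus the lowest of the 4 T and NK classes for Cd27 while being second for Tnfrsf4 and Tnfrsf18. Dendritic-like cells held 1 or 2 Cd27 UMIs per library.

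Within helper-like cells, Cd27 was missing from the Th17 subset and was found in naive cells among others. Of the 170 Cd27 UMIs of the class, naive cells held 22, memory cells 19 (51.6 CPM) and unnamed cells 112 (35.8 CPM). The 181 Th17 cells had 0 Cd27 UMIs in each library, whereas 46 naive cells, 36 of them from the combination library, summed to 114 CPM. The naive cells in turn had 1 Tnfrsf4 UMI in all. Among CD8-like cells, the exhausted subset (named from Pdcd1, Havcr2, Lag3, Tox and other fixed markers) held more of all 4 receptors than the memory subset when the libraries were summed. For Tnfrsf9 these sums were 350 against 155 CPM, for Tnfrsf4 152 against 53.6, for Tnfrsf18 278 against 191 and for Cd27 186 against 103.

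**Figure D1:**
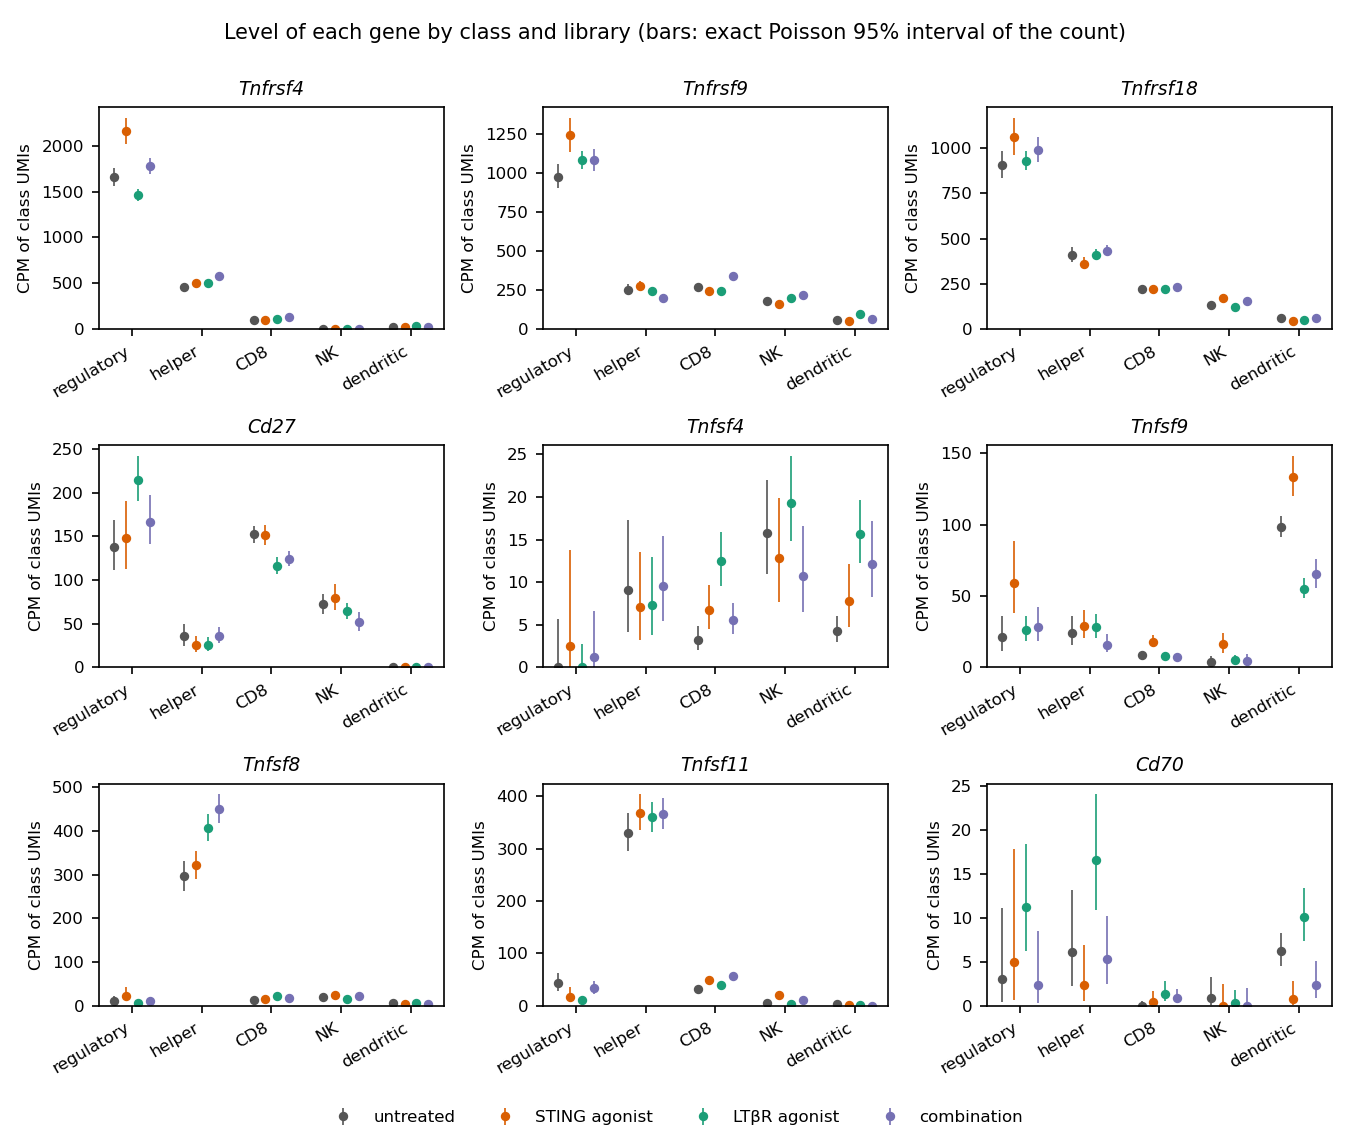
Level of each of the 9 genes (vertical axis, CPM of class UMIs, from 0 and scaled separately for each gene) in 5 cell classes (horizontal axis), with 1 point per library and bars for the exact Poisson 95% interval of the count. Tnfrsf4, Tnfrsf9 and Tnfrsf18 were highest in regulatory-like cells in all 4 libraries, Tnfsf8 and Tnfsf11 in helper-like cells and Tnfsf9 in dendritic-like cells.

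OX40, 4-1BB and GITR transcripts were found together in single regulatory-like cells. At least 1 UMI of all 3 receptors was present in 57.4% of untreated regulatory-like cells (93 of 162), in 65 of 97 with STING agonist, in 68.6% with LTbR agonist (229 of 334) and in 79.1% with the combination (129 of 163). Cells differed in depth between these libraries, and after thinning to 1000 UMIs the shares were 21.3, 29.0, 27.0 and 29.0%. The untreated library was lowest on both scales, whereas the combination stood above the other treated libraries only before thinning. Helper-like cells reached 22.2 to 33.6% before thinning and 2.63 to 3.37% after it, and CD8-like cells 18.8 to 24.5% and 0.698 to 1.02%. In NK-like cells, 1 cell per library had all 3 receptors and none did after thinning, which leaves the thinned share in regulatory-like cells above that of the 3 other lymphocyte classes compared in every library. Dendritic-like cells were not compared in this way.

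**Figure D2:**
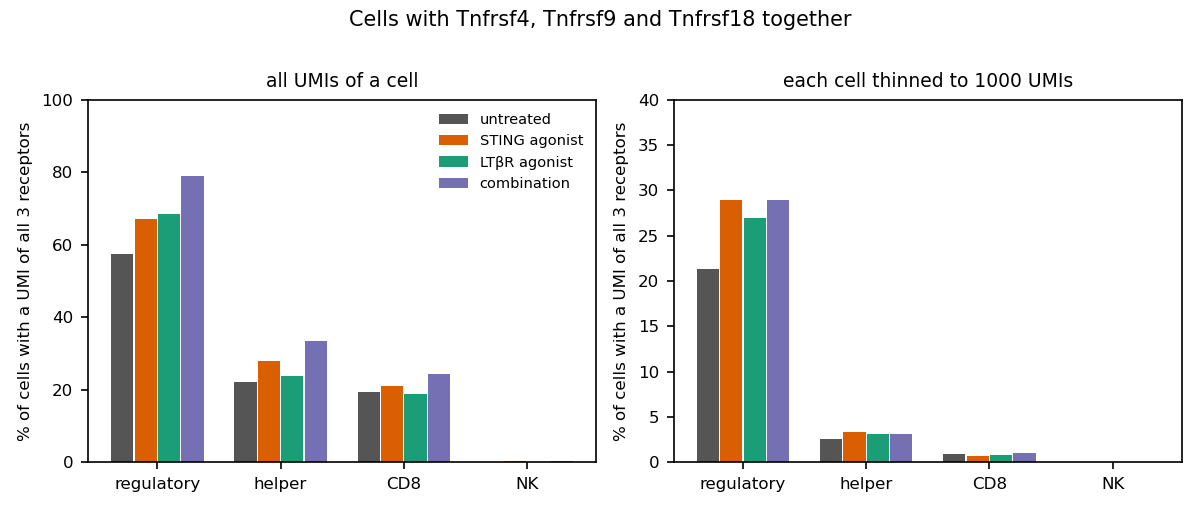
Share of cells (vertical axis, %, scaled separately in each panel) with at least 1 UMI of each of Tnfrsf4, Tnfrsf9 and Tnfrsf18 in 4 classes (horizontal axis), 1 bar per library, from all UMIs (left) and with each cell thinned to 1000 UMIs (right). Regulatory-like cells were at 57.4 to 79.1% before and 21.3 to 29.0% after thinning, and helper-like cells at no more than 3.37% after it.

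Among the ligands, Tnfsf8 and Tnfsf11 marked helper-like cells. Tnfsf8, the CD30 ligand of activated T cells, stood at 296, 322, 407 and 450 CPM in helper-like cells, while each of the other 4 classes stayed at or below 23.5 CPM in every library. The ratio of means to the next class, NK-like, was 18.0. Tnfsf11, or RANKL, stood at 330, 369, 360 and 366 CPM in helper-like cells (356 ± 17.7), 8.06 times the mean of CD8-like cells at 32.6, 48.6, 39.8 and 55.7 CPM. Regulatory-like cells, which also carry Cd4, held 10.4 to 42.9 CPM of Tnfsf11 and 5.96 to 22.3 CPM of Tnfsf8, so both ligands separated helper-like from regulatory-like cells.

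These ligands differed between groups of helper-like cells. A sub-cluster of 308 helper-like cells led by Penk, the proenkephalin gene, which fitted no fixed subset and stays unnamed, held Tnfsf8 at 378, 495, 641 and 796 CPM and Tnfsf11 at 435, 606, 776 and 794 CPM. The same cells held Tnfrsf4 at 769, 909, 974 and 988 CPM, with a UMI in 86.4% of cells. Cells of an unnamed sub-cluster led by Nebl (106 helper-like cells) held Tnfsf8 at 441 to 982 CPM and Tnfsf11 at 521 to 1169 CPM but Tnfrsf4 at only 90.8 to 260 CPM. Th2 cells (96) held all 3 genes, with sums over the libraries of 522 CPM for Tnfsf8, 284 CPM for Tnfsf11 and 539 CPM for Tnfrsf4. The 181 Th17 cells were near the level of the class, at 354 CPM for Tnfsf8 and 272 CPM for Tnfsf11. The memory subset (83 cells) held 29.9 CPM of Tnfsf8 and 48.9 CPM of Tnfsf11. Tnfsf8 and Tnfsf11 were not used to make these clusters, although they are among the 10 leading genes of the Penk group.

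Tnfsf9, the 4-1BB ligand of antigen-presenting cells, was highest in dendritic-like cells in all 4 libraries. Its level was 98.3 CPM untreated, 133 with STING agonist, 55.2 with LTbR agonist and 65.3 with the combination, so the libraries with LTbR agonist were the lower pair. Regulatory-like cells were second with 21.4, 59.4, 26.1 and 28.4 CPM, and the ranges overlapped because the STING value of regulatory-like cells (24 UMIs) exceeded the LTβR value of dendritic-like cells. In helper-like (16.0 to 29.3), CD8-like (7.51 to 18.0) and NK-like cells (4.06 to 16.1) the highest Tnfsf9 level of the 4 libraries was that with STING agonist as well. In NK-like cells these levels rest on 9 to 24 UMIs. In helper-like cells they rest on 24 UMIs untreated, 37 with STING agonist, 46 with LTbR agonist and 27 with the combination.

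The other ligands were scarce. Tnfsf4, the OX40 ligand, was measured at 3.21 to 19.3 CPM in NK-like, dendritic-like, helper-like and CD8-like cells, whose ranges overlapped, and in regulatory-like cells it had 0, 1, 0 and 1 UMIs. The 0 UMIs of untreated regulatory-like cells allow a level of up to 4.59 CPM (3 counts), and those with LTbR agonist up to 2.24 CPM. Cd70 had 236 UMIs over all cells, and no class was highest in all libraries. Dendritic-like cells held 46, 2, 47 and 6 Cd70 UMIs (6.18, 0.785, 10.1 and 2.35 CPM), helper-like cells 6, 3, 27 and 9, and CD8-like and NK-like cells at most 7 per library. Taking the 9 genes together, 6 had the same highest class in every library, and the exceptions were Cd27, Tnfsf4 and Cd70.

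Where the transcripts of a gene came from depended on the size of each class as well as on the level in it. Regulatory-like cells, 2.39 to 4.67% of the cells of a library, contributed 36.1% of all Tnfrsf4 UMIs, and helper-like and CD8-like cells a further 19.3% and 17.7%. For Tnfrsf9 and Tnfrsf18 the largest source was the CD8-like class, with 29.7% and 29.9% of UMIs, and macrophage- or monocyte-like cells, the most numerous class, gave 15.2% of the Tnfrsf9 UMIs. Cd27 came from CD8-like cells for 55.3%. Among ligands, 53.5% of Tnfsf9 UMIs came from macrophage- or monocyte-like cells and 26.0% from dendritic-like cells, whereas helper-like cells gave 42.9% of Tnfsf11 and 36.3% of Tnfsf8. For Cd70, 42.8% of UMIs were in dendritic-like cells, although the highest mean level was in helper-like cells. A further 13.1% of Tnfrsf4 UMIs lay in cells left unnamed, mainly a cluster of 514 cells with T cell leading genes (Areg, Tnfrsf4, Il2ra, Ctla4), macrophage markers and a median of 13250.5 UMIs, which stayed out of the classes.

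**Figure D3:**
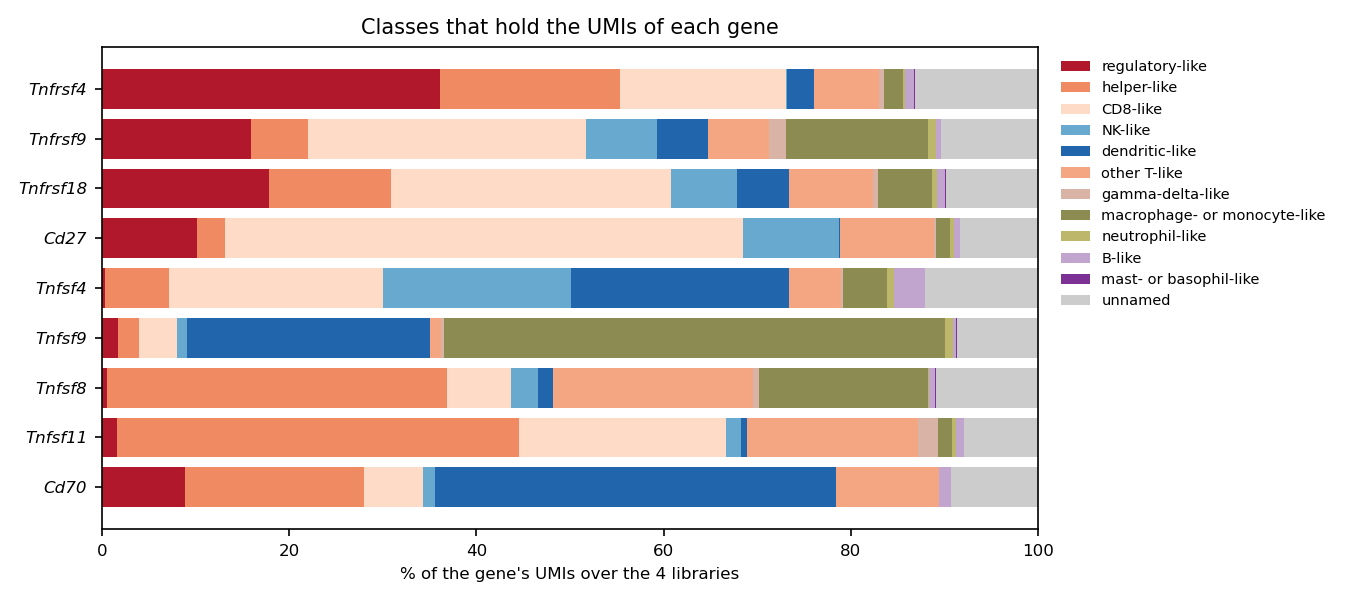
Share of each gene's UMIs over the 4 libraries (horizontal axis, %) held by each cell class (colors), 1 bar per gene. Regulatory-like cells hold 36.1% of Tnfrsf4 UMIs, CD8-like cells 55.3% of Cd27 and macrophage- or monocyte-like cells 53.5% of Tnfsf9.

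Dendritic-like cells divided into subsets with different ligands. The mature subset, 420 cells named from Fscn1, Ccr7, Ccl22 and other markers of activated migratory dendritic cells, held nearly all Tnfsf4 and Cd70 of the class. Of the Tnfsf4 UMIs of dendritic-like cells, mature cells had 31 of 32 in the untreated library, 18 of 20 with STING agonist, 73 of 73 with LTbR agonist and 25 of 31 with the combination. Of the Cd70 UMIs they had 46 of 46, 2 of 2, 47 of 47 and 5 of 6. cDC1, cDC2 and plasmacytoid cells together had 5 Tnfsf4 UMIs, all in cDC2, and 1 Cd70 UMI.

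The mature subset also held the receptors. Tnfrsf9 was measured there at 221, 166, 291 and 189 CPM, a range that overlaps that of CD8-like cells, and Tnfrsf4 at 76.9, 69.7, 141 and 93.8 CPM. Tnfrsf11a, the RANK receptor through which RANKL acts, stood at 163, 136, 164 and 132 CPM and was found in 59.0% of mature cells, against sums over the libraries of 18.8 CPM in cDC2, 12.0 CPM in cDC1 and 2.19 CPM in plasmacytoid cells. RANKL was thus highest in helper-like cells and its receptor RANK in the mature subset of dendritic-like cells. Mature cells fell into 2 sub-clusters. The larger, 286 cells led by Fscn1 and Cacnb3, held Tnfsf4 at 25.4, 48.5, 89.7 and 60.7 CPM, and the smaller, 134 cells led by Fabp5, Ccl22 and Ccr7, at no more than 7.34 CPM.

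Tnfsf9 was instead spread over several subsets, and its level summed over the libraries was highest in cDC2. The 355 cDC2 held 283, 371, 75.3 and 146 CPM, the mature cells 132, 81.4, 74.6 and 54.2 CPM, and plasmacytoid cells 2 UMIs in all. Unnamed dendritic-like cells had a Tnfsf9 UMI in 29.3% of cells (51.4 CPM over the libraries), and cDC1 held 29.8 CPM. cDC2 were made of 2 sub-clusters, of which the larger (243 cells) was led by interferon-response genes such as Cxcl10, Ifit3 and Rsad2 and the smaller (112 cells) by Cd209a. Tnfsf9 stood at 269, 306, 57.2 and 17.6 CPM in the larger and at 337, 784, 104 and 334 CPM in the smaller. The level with LTbR agonist alone was below the untreated level in both, whereas with the combination it was below in the larger and at the untreated level in the smaller, which has 23 untreated and 36 combination cells.

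**Figure D4:**
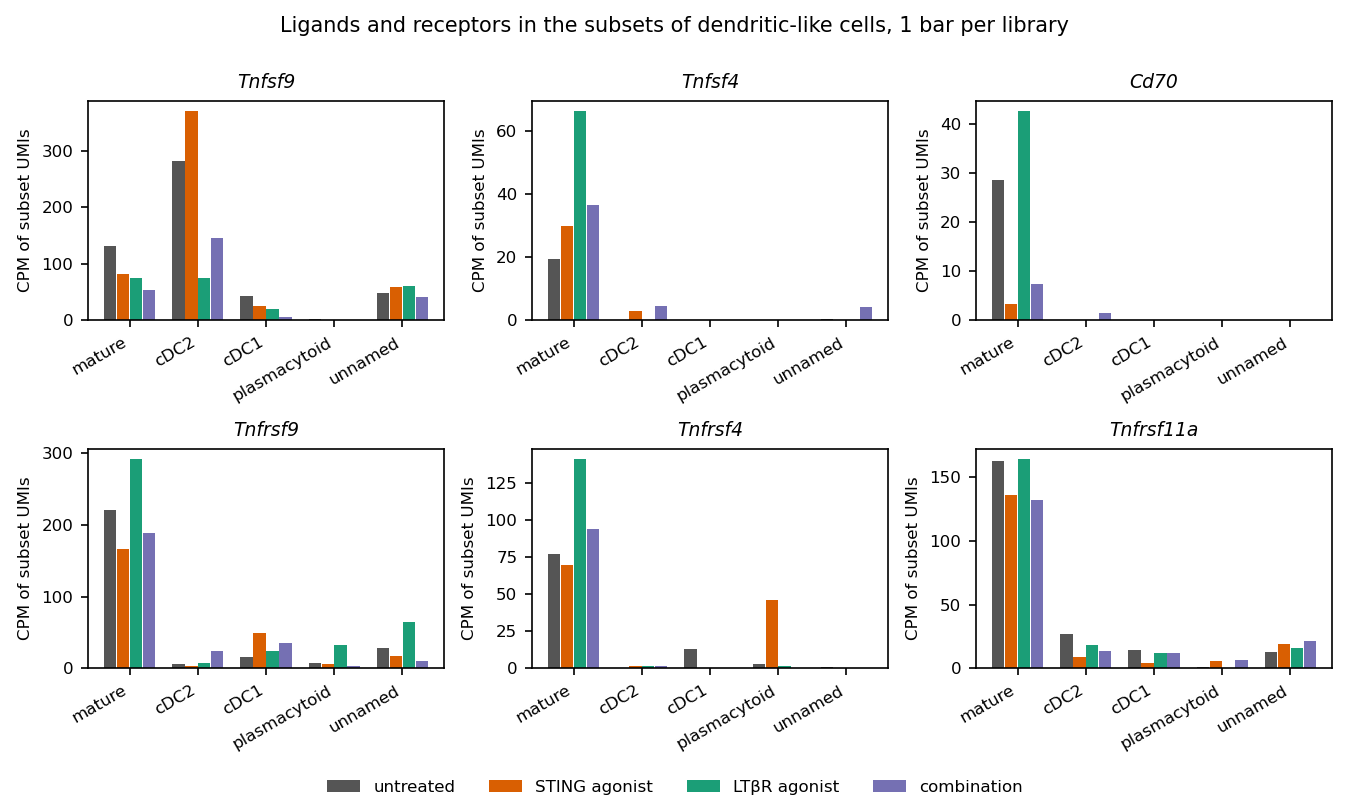
Level (vertical axis, CPM of subset UMIs, from 0) of 3 ligands and 3 receptors in the subsets of dendritic-like cells (horizontal axis), 1 bar per library. Tnfsf4, Cd70, Tnfrsf4, Tnfrsf9 and Tnfrsf11a stand in the mature subset, and cDC2 hold Tnfsf9 at 283 CPM untreated and 75.3 CPM with LTbR agonist.

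NK-like cells carried Tnfrsf9, Tnfrsf18 and Cd27 with different subsets in front. ILC1, tissue-resident innate cells, held Tnfrsf9 at 243, 200, 339 and 325 CPM, above conventional NK cells at 138, 108, 172 and 161 CPM in each library. Tnfrsf18 was ordered likewise, at 200 to 246 against 113 to 164 CPM. Cd27 ran the other way, at 31.3, 48.8, 49.9 and 30.8 CPM in ILC1 and 89.3, 133, 79.0 and 74.9 CPM in conventional NK cells.

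Changes with treatment were read as log2 ratios of CPM plus 10 against the untreated library, in class and gene pairs with at least 100 UMIs over the 4 libraries. Of the 45 pairs, 30 met this minimum. With 1 library per group no test can be made, so a pair was counted when its ratio reached 1.5-fold either way, beside the share of all genes that did so. The intervals given set the Poisson bounds of one count against the opposite bounds of the other. With STING agonist 1 of 30 pairs was past 1.5-fold, with LTbR agonist 5, and with the combination 3. Of all genes tested, 1.42 to 13.5% passed in a class with STING agonist and 0.845 to 7.53% with LTbR agonist. With the combination 1.49 to 12.8% did. The STING pair lay in dendritic-like cells (1.42%). The LTbR pairs lay in regulatory-like (7.53%), CD8-like (1.88%) and dendritic-like cells (1.31%). Among them, the Tnfsf4 pairs in CD8-like and dendritic-like cells met the minimum only with the UMIs of the LTbR library, as described below. The combination pairs lay in helper-like (11.4%), CD8-like (1.49%) and dendritic-like cells (2.50%), and none in regulatory-like cells, where the share was highest. Each class count is therefore set beside the share of its own class below. The median log2 ratio over the 30 pairs was 0.12, 0.08 and 0.11, and the class medians over all genes tested ran from -0.0779 to 0.0518. All 3 comparisons share the untreated library.

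In regulatory-like cells 4 of the 9 genes were measured well enough, and 0, 1 and 0 of them passed the fold with STING agonist, LTbR agonist and the combination, where 13.5%, 7.53% and 12.8% of 5071 genes did. The gene was Cd27, at 215 CPM with LTbR agonist against 138 CPM untreated (289 against 90 UMIs, log2 ratio 0.61, interval 0.17 to 1.06). Thinned to 1000 UMIs, cells with LTbR agonist had a Cd27 UMI in 13.7% and untreated cells in 12.3%, and the fold no longer reached 1.5. For Tnfrsf4 the ratio was 0.38 (0.20 to 0.56) with STING agonist, -0.18 (-0.33 to -0.03) with LTbR agonist and 0.10 (-0.06 to 0.26) with the combination. For Tnfrsf9 and Tnfrsf18 it lay between 0.03 and 0.34. The receptors that set regulatory-like cells apart therefore stayed within 1.5-fold of untreated in each treated library. Regulatory-like cells had a Cd8a level of 76.6, 7.42, 59.6 and 114 CPM, whose part in these values was not tested.

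In helper-like cells 7 genes were compared, and 0, 0 and 1 passed the fold, where 6.82%, 6.24% and 11.4% of 6616 genes did. Tnfsf8 was at 450 CPM with the combination and 296 CPM untreated (log2 ratio 0.59, 0.33 to 0.86), at 407 CPM with LTbR agonist (0.45, 0.18 to 0.72) and at 322 CPM with STING agonist (0.12, -0.18 to 0.42). A single cell held 72 of the 758 Tnfsf8 UMIs in the combination library, and without the top cell of each library, or without barcode sequences found in more than 1 library, the ratio was 0.54 and 0.53, just under 1.5-fold, and with the clusters led by another class kept it was 0.43. In the Th17 subset Tnfsf8 was at 312 CPM untreated (26 UMIs in 20 cells) and 740 CPM with the combination (86 UMIs in 21 cells). The makeup of the class differed between libraries as well. Naive cells were 1.30% of untreated and 12.2% of combination helper-like cells, and Th2 cells 4.78% and 17.6%, and their part in the class level of a gene was not tested. Tnfsf11 stayed between 0.12 and 0.16 in all 3 comparisons, and Tnfrsf9 was at 202 CPM with the combination against 253 CPM untreated (-0.31, -0.63 to 0.01).

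In CD8-like cells 8 genes were compared, and 0, 1 and 1 passed the fold, against a background of 1.55%, 1.88% and 1.49% of 9739 genes. Tnfsf4 had 21, 30, 64 and 39 UMIs (3.21, 6.76, 12.5 and 5.52 CPM), with a log2 ratio of 0.77 (0.40 to 1.11) for LTbR agonist. All 3 treated libraries were above the untreated one. In the memory subset it had 0 UMIs in 148 untreated cells and 13 UMIs in 123 cells with LTbR agonist, and in the exhausted subset 12 and 18 UMIs in 370 and 285 cells. Of the 154 Tnfsf4 UMIs in CD8-like cells, 64 came from the LTbR library, and those of the other libraries together were under the minimum. The Tnfsf4 pair was therefore compared because of the library in which it was high. The part of this selection in its ratio was not tested. Tnfsf11 was at 55.7 CPM with the combination and 32.6 CPM untreated (0.63, 0.35 to 0.90), and STING agonist alone gave 48.6 CPM (0.46, 0.15 to 0.77). In exhausted cells the Tnfsf11 level was 21.7 CPM untreated and 45.9 CPM with the combination (0.82, 0.32 to 1.31), while in memory cells it was 39.0 and 30.6 CPM.

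Tnfrsf9 and Tnfrsf4 in CD8-like cells were both highest with the combination. For Tnfrsf9 the log2 ratio was 0.32 (0.20 to 0.44) against untreated, 0.45 (0.31 to 0.59) against STING agonist and 0.48 (0.35 to 0.62) against LTbR agonist, and for Tnfrsf4 0.37, 0.40 and 0.35. None of these 6 ratios reached 1.5-fold, and each counting interval lay above 0. The exhausted subset held Tnfrsf9 at 309, 310, 304 and 450 CPM, so the combination library stood apart from the other 3, which lay within 6 CPM of each other. Tnfrsf4 was highest with the combination in exhausted cells too, as both genes were in unnamed cells. In memory cells Tnfrsf9 was highest with the combination (195 CPM), but Tnfrsf4 was highest untreated (94.7 against 42.9 CPM with the combination). In the small cycling and interferon-responding subsets neither gene was highest with the combination. Cd27 was lower with LTbR agonist (116 CPM, log2 ratio -0.36) and with the combination (124 CPM, -0.28) than in untreated CD8-like cells (153 CPM). The 7 NK markers summed to 1958, 1531, 1095 and 1313 CPM in this class, and the share of naive cells was 0.322, 0.174, 1.67 and 4.14%, whose part in these differences was not tested.

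In NK-like cells 5 genes were compared and none passed the fold, where 3.93%, 0.845% and 2.56% of 7690 genes did. The ratio farthest from 0 was that of Cd27 with the combination, -0.41 (-0.85 to 0.04). For Tnfrsf18 the ratio with STING agonist was 0.37 (0.04 to 0.69), in a library where ILC1 were 35.2% of NK-like cells against 14.2% untreated. In the STING and untreated libraries Tnfrsf18 was at 208 and 200 CPM within ILC1, at 164 and 142 CPM within conventional NK cells and at 124 and 90.7 CPM within unnamed NK-like cells.

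In dendritic-like cells 6 genes were compared and 1, 3 and 1 passed the fold, where 1.42%, 1.31% and 2.50% of 9068 genes did. With LTbR agonist Tnfsf9 was lower (55.2 against 98.3 CPM, log2 ratio -0.73, -0.98 to -0.48), and Tnfsf4 (15.7 against 4.30 CPM, 0.84, 0.47 to 1.20) and Tnfrsf4 (33.9 against 18.8 CPM, 0.61, 0.27 to 0.94) were higher. The Tnfrsf4 ratio was close to the fold and was 0.58 without the top cell of each library. With the clusters led by another class kept in the class, the Tnfsf4 ratio was 0.36 and the Tnfrsf4 ratio 0.20, both under 1.5-fold. Of the 156 Tnfsf4 UMIs in dendritic-like cells, 73 came from the LTbR library, and those of the other libraries together were under the minimum. The Tnfsf4 pair was therefore compared because of the library in which it was high. The part of this selection in its ratios was not tested. Tnfrsf9, at 95.6 against 62.0 CPM, was just inside the fold (0.55, 0.32 to 0.79). In cDC2 the Tnfsf9 ratio was -1.78 (-2.20 to -1.36), from 352 UMIs in 120 untreated cells and 86 UMIs in 107 cells, and in mature cells -0.75 (-1.22 to -0.28). In unnamed dendritic-like cells (210 untreated and 110 with LTbR agonist) Tnfsf9 was instead at 60.1 against 47.9 CPM (0.28, -0.21 to 0.76). In mature cells the Tnfsf4 ratio was 1.38 (0.73 to 2.01) and that of Tnfrsf4 0.80 (0.35 to 1.24). The share of mature cells in the class was 25.5% untreated and 27.8% with LTbR agonist, and that of cDC2 18.2% and 24.0%.

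With the combination, Tnfsf4 in dendritic-like cells was at 12.1 CPM (0.63, 0.18 to 1.07), and Tnfsf9 at 65.3 CPM was within the fold (-0.52, -0.81 to -0.24). Set against STING agonist alone, the combination gave a Tnfsf9 log2 ratio of -0.93 (-1.27 to -0.59) in dendritic-like, -0.68 (-1.05 to -0.29) in CD8-like and -0.60 (-1.29 to 0.12) in helper-like cells. Set against LTbR agonist alone, it gave a Cd70 ratio of -0.70 (-1.11 to -0.21) in dendritic-like cells. For Tnfsf4 the values rest on few cells, since 9 of 227 combination cells had a UMI, and the ratio was 0.44 without the top cell of each library and 0.05 with the clusters led by another class kept, both under 1.5-fold. With STING agonist alone Cd70 had 2 UMIs in 216 dendritic-like cells against 46 UMIs in 658 untreated cells (log2 ratio -0.59, -0.85 to -0.18), and in mature cells 3.32 against 28.7 CPM (-1.54, -2.22 to -0.50). The class ratio lay at the edge of the fold and was -0.57 without the top cell of each library. In dendritic-like cells Cd70 was thus lower in both libraries given STING agonist, at 0.785 and 2.35 CPM, than in both without it, at 6.18 and 10.1 CPM. Its 101 UMIs in this class just met the minimum of 100, with 46 from the untreated library and 47 from that with LTbR agonist. The pair was therefore compared because of the libraries in which Cd70 was high, and the part of this selection in its ratios was not tested. The neutrophil markers in dendritic-like cells summed to 1544, 1249, 1317 and 899 CPM, and their part in these differences was not tested.

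**Figure D5:**
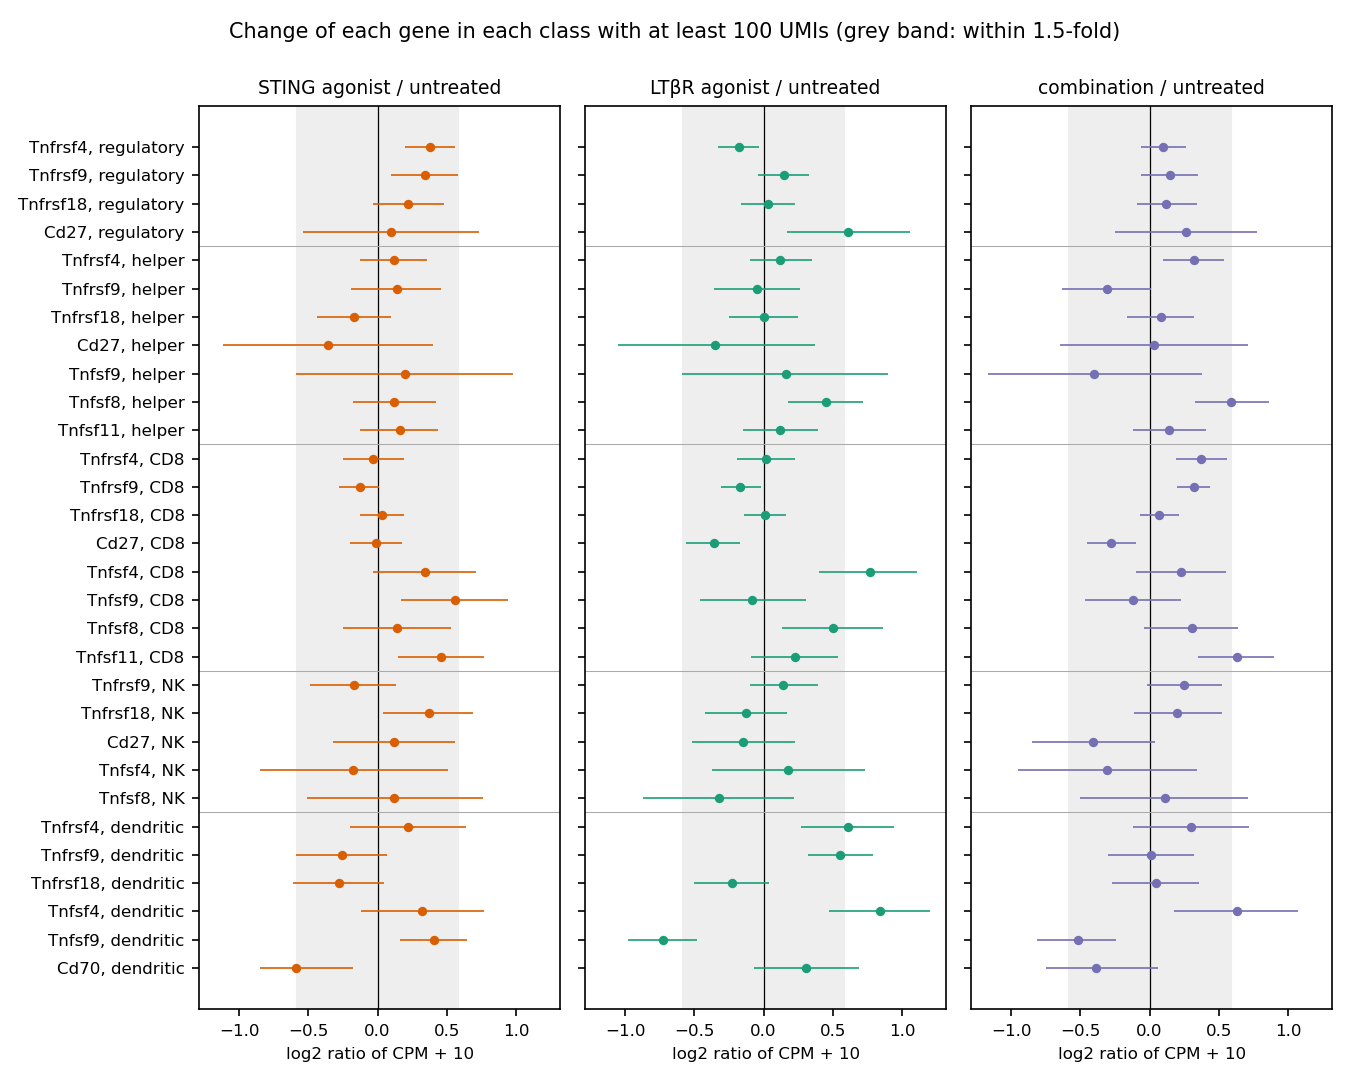
Log2 ratio of CPM plus 10 against the untreated library (horizontal axis) for the 30 gene and class pairs with at least 100 UMIs (vertical axis), 1 panel per treatment, with counting intervals as bars and the band within 1.5-fold in grey. Past the band lie 1 pair with STING agonist, 5 with LTbR agonist and 3 with the combination.

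The binding partners outside the 9 genes were Tnfsf18 (the GITR ligand), Tnfrsf8 (CD30, the receptor of Tnfsf8), Tnfrsf11a and Tnfrsf11b (osteoprotegerin, the decoy receptor of RANKL). In 2 of 20 class and gene pairs they reached 100 UMIs. Tnfrsf8 in regulatory-like cells stood at 101, 84.1, 63.4 and 59.2 CPM, with log2 ratios of -0.24, -0.60 and -0.68 against untreated, of which the last 2 were past the fold with counting intervals that reached 0. Among the 5 classes, the ligand of CD30 was thus highest in helper-like cells, and its receptor reached 100 UMIs only in regulatory-like cells. Outside them, other T-like cells held 21.3% of all Tnfsf8 UMIs and macrophage- or monocyte-like cells 18.0%. Tnfrsf11a in dendritic-like cells stood at 46.2, 40.8, 49.0 and 46.5 CPM and stayed within 1.5-fold. Tnfsf18 had 0 to 2 UMIs per library in each of the 5 classes, so the ligand of GITR was not detectable at this depth in the classes that held its receptor.

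The 12 signalling genes (Traf1, Traf2, Traf3, Traf5, Traf6, Birc2, Birc3, Map3k14, Nfkb1, Nfkb2, Rel and Relb), the TRAF adaptors and NF-kappaB proteins below these receptors, all reached 100 UMIs in each class. Of 60 pairs, 2 were higher past the fold with STING agonist, 1 was lower with LTbR agonist and 2 were lower with the combination, with medians of 0.06, 0.01 and -0.04. In regulatory-like cells, which held both STING pairs, 13.5% of all genes passed the fold, so 2 of 12 genes there is near the background. The pairs with the combination were Traf3, a brake on the non-canonical pathway, in regulatory-like cells (329 against 536 CPM, -0.69, upper bound -0.37) and Traf5 in helper-like cells (14.9 against 36.5 CPM, -0.90, -1.62 to -0.15). With STING agonist both pairs were in regulatory-like cells, where Birc3, a target and regulator of NF-kappaB, was at 527 against 320 CPM (0.70, 0.32 to 1.09) and Traf2 had 29 against 21 UMIs (0.96, -0.03 to 1.92).

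Of the CD28 family list (Cd28, Icos, Cd80, Cd86 and Icosl), 16 of 25 pairs could be compared, and 1, 1 and 2 were lower past the fold, none higher. With the combination these were Cd86, a CD28 ligand, in regulatory-like cells (16 against 24 UMIs, -0.69) and in helper-like cells (27 against 34 UMIs, -0.77), with medians over the list of 0.01, -0.18 and -0.18 for the 3 treatments. In these classes 12.8% and 11.4% of all genes passed the fold with the combination. The macrophage or monocyte markers of helper-like cells summed to 264, 227, 239 and 94.5 CPM, and their part in the Cd86 value was not tested. Of the 16 other TNF family genes, 38 of 80 pairs could be compared. Past the fold, 1 was higher and 1 lower with STING agonist, and 2 were higher and 1 lower with LTbR agonist. With the combination 2 were higher and none lower. Both pairs with the combination were Ltb, the membrane subunit of the LTβR ligand, in regulatory-like cells (905 against 553 CPM, 0.70, 0.45 to 0.95) and in dendritic-like cells (90.0 against 50.1 CPM, 0.73, 0.44 to 1.03). In these 2 classes 12.8% and 2.50% of all genes passed the fold with the combination. The 7 B cell markers in dendritic-like cells summed to 8.60, 9.42, 8.59 and 19.2 CPM, highest in the combination library, and their part in the Ltb value was not tested. In regulatory-like cells LTbR agonist alone gave 919 CPM of Ltb (0.72, 0.50 to 0.95) and STING agonist 626 CPM (0.18, -0.15 to 0.50), so its level was higher in both libraries given LTbR agonist.

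Over the 36 values that 9 named classes gave in 4 libraries, the genes with the most similar patterns were found among 11464 genes. These points share libraries and class definitions, and the correlations are descriptions. Tnfrsf4 ran most closely with F730043M19Rik (r = 0.95), Cd5 (0.95) and Izumo1r (0.94), Tnfrsf9 with Leprotl1 (0.96), Ikzf2 (0.94) and Sept9 (0.91), and Tnfrsf18 with Cd28 (0.93), Sdf4 (0.92) and Slc5a3 (0.92). Cd27 ran with Tigit (0.96), Gzmb (0.94) and Itih5 (0.94). Tnfsf8 and Tnfsf11 had Cd40lg, the CD40 ligand of helper T cells, in common (0.91 and 0.92) and ran with each other (0.88), whereas Tnfsf9 ran with Casp6, Mrpl14 and Psme2 (each 0.87) and Tnfsf4 less closely with Klri2 (0.80), Klrd1 (0.77) and 1700025G04Rik (0.77). Among the receptors, Tnfrsf18 correlated with Tnfrsf9 at 0.89 and with Tnfrsf4 at 0.87, while Tnfsf9 and its receptor Tnfrsf9 stood at 0.08 and Tnfsf4 and Tnfrsf4 at -0.02. Cd70, with 188 UMIs in these classes, was under the minimum of 300.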

How the data were processed

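The authors deposited raw UMI counts per gene and barcode (10x 5′ libraries, Cell Ranger 7.1.0, mm10, per the labels), with the 4 libraries in 1 matrix told apart by barcode suffix. Barcodes with 300 to 5000 genes and at most 6% mitochondrial UMIs were kept. Counts were scaled to 10000 per cell, log transformed and clustered (2000 variable genes without the 9 genes and 662 antigen receptor genes, 30 components, Leiden resolution 1) with scanpy 1.11.5, leidenalg 0.10.2 and scikit-learn 1.9.0 in Python 3.11.15. Clusters were named from marker lists, needing at least 3 detected markers. Clusters led by another class's genes stayed unnamed, a threshold set after the clusters were seen. Doublets were not removed, and Scrublet scores over 0.2 (76 to 238 cells per library) were an alternative.

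UMIs were summed per class and library and scaled to CPM. With 1 library per group, no test was made: ratios of CPM plus 10 were counted past 1.5-fold among genes with at least 100 UMIs in the class, with exact Poisson and Clopper-Pearson 95% intervals (scipy 1.17.1), and the ratio code was tested on simulated data. Total UMIs were 60770280, 32529174, 56877525 and 42710099 (untreated, STING, LTbR, combination). The study had 2 single-cell experiments, and the labels do not say which gave these libraries.

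Members and lists were chosen with earlier results of these data known. Of the lists, those genes past 1.5-fold with the combination that had the largest ratios were named, at most 3 per list and class, with each member's partner where it had 100 UMIs and the 3 genes of highest correlation. List genes named for single agonists, and sub-clusters, were chosen after their values were seen. Gene positions are from GENCODE on GRCm38 and promoters from RefSeq.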

Additional observations from a re-analysis of the deposited data

Results flagged for a closer look

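With LTbR agonist, 3 genes had counting intervals on opposite sides of 0 in 2 classes. Tnfrsf4 had a log2 ratio of 0.61 in dendritic-like and -0.18 in regulatory-like cells, Tnfrsf9 0.55 in dendritic-like and -0.17 in CD8-like cells, and Cd27 0.61 in regulatory-like and -0.36 in CD8-like cells. These differences between classes were not tested, since each group is 1 library.

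Outside the 5 classes, only rises of at least 1.5-fold were flagged, for genes with at least 100 UMIs in the class. Other T-like cells are T cells that Cd4, Cd8a and Cd8b1 did not place in a class. They held Tnfrsf4 at 168 CPM with STING agonist and 183 CPM with the combination against 106 CPM untreated (log2 ratios 0.62 and 0.74). Tnfsf8 there was at 255 CPM with STING agonist against 152 CPM untreated (0.71). Decreases were not flagged. Among them, Tnfrsf9 in neutrophil-like cells was at 46.0 CPM with LTbR agonist against 89.0 CPM untreated (-0.82, -1.48 to -0.15). B-like cells, 58 in the untreated, 15 in the STING, 175 in the LTβR and 530 in the combination library, are given because the untreated library had few UMIs there. Tnfrsf4 had 0 UMIs untreated, which allows up to 7.87 CPM, 19 with LTbR agonist (16.6 CPM, ratio 1.41) and 124 with the combination (35.2 CPM, ratio 2.18). Tnfrsf9 had 1 UMI untreated, 1 with STING agonist, 23 with LTbR agonist and 92 with the combination, ratios of 0.84, 1.25 and 1.52, the first 2 with counting intervals that include 0. For Tnfrsf18 there were 4 untreated UMIs, 40 in the LTβR library (log2 ratio 1.13, -0.08 to 2.16) and 121 in the library given both agonists (log2 ratio 1.11, 0.06 to 1.99). With STING agonist Tnfrsf18 had 0 UMIs (log2 ratio -1.04, -1.88 to 2.14). The ratios against 0 or 1 UMI depend on the 10 CPM added and are not bounds. In B-like cells these genes met the minimum of 100 UMIs mainly through the combination library. It held 124 of 143 Tnfrsf4, 92 of 117 Tnfrsf9 and 121 of 165 Tnfrsf18 UMIs of the class. The genes were therefore compared because of the library in which their counts were high, and the part of this selection in the ratios was not tested.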

How the results depend on the processing

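No paired analysis was possible because each group is 1 library. Of 135 log2 ratios of the 9 pairs past 1.5-fold under 15 alternatives, 120 stayed within the counting interval, 15 moved out of it and none changed sign. The number of pairs past the fold was 1, 5 and 3 for STING agonist, LTbR agonist and the combination. It became 4, 8 and 5 with 1 CPM added and 0, 0 and 0 with 50 CPM, because the added CPM sets how much low genes move. It was 6 with STING agonist and 8 with LTbR agonist with no filter on low counts (more pairs compared), 3 with STING agonist and 0 with the combination when CPM was taken in each cell and then averaged, 5 with STING agonist and 5 with the combination with each cell thinned to 1000 UMIs, 0 with STING agonist when the 9 genes could enter the clustering genes, and 2 with STING agonist and 6 with the combination as a mean over sub-clusters with equal weights. With clusters led by another class kept, it was 2 with STING agonist and 3 with LTbR agonist. Apart from the added CPM and the filter, the cause of these moves was not tested. The number of genes with the same highest class in all 4 libraries was 6 or 7 throughout. The alternatives that kept those clusters or left out the 284 shared barcode sequences were chosen after seeing the data. Of single pairs, Tnfrsf4 in dendritic-like cells with LTbR agonist was past the fold under 8 of 15 alternatives, Tnfsf4 there with the combination under 9, Tnfsf8 in helper-like cells with the combination and Cd70 in dendritic-like cells with STING agonist under 10 each, and the other 5 pairs under 12 to 14. Low UMI counts limit Tnfsf4 and Cd70 most, and the spread between mice cannot be seen in these libraries.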
